A study of Mus musculus with 20 samples.

Results

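Rplp0 and Rbpj are protein-coding genes of mouse chromosome 5, and both have processed copies on other chromosomes. The 7 rows described here, of 13225 genes in the deposited expression table, are Rplp0 with its copies Gm8730, Gm9625, Gm14165 and Rplp0-ps1, and Rbpj with its copy Rbpj-ps3. They were listed by name, and the list was selected on the log2 expression values of these same libraries, in which the genotypes differed. Their levels by genotype are therefore given as a description, with no test, and tests are given on their response to cigarette smoke. The table holds alveolar macrophages, the resident phagocytes of the airspaces, which were sorted from lung by CD45, Siglec-F and CD11c and sequenced as poly-A RNA with 1 library per mouse. The donors were C57BL/6 mice, wild-type and called WT below, and mice of B6.Cg-Mir155tm1.1Rsky/J, a strain with a targeted miR-155 allele, called miR-155 KO. Over 4 weeks they were exposed to cigarette smoke or kept in air, which makes 4 groups of 5 mice: WT air, WT smoke, miR-155 KO air and miR-155 KO smoke. The sources used here do not give age or sex, nor say whether mice of the 2 strains were littermates.

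Rplp0 encodes P0, the protein at the base of the ribosomal stalk, to which dimers of Rplp1 and Rplp2 bind and where elongation factors are engaged during translation. Its messenger RNA is abundant in nearly every cell and is widely used as a reference in quantitative PCR. Rbpj encodes the DNA-binding factor of the Notch pathway: it recruits corepressors to its target genes until a cleaved Notch receptor, with a Mastermind coactivator, joins it. A processed pseudogene is a spliced messenger RNA that was copied back into the genome, so it lacks the introns of its parent and can resemble it closely enough that a short read fits both.

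Both parents lie on chromosome 5 and none of the 5 copies in the table does. In the GENCODE M21 annotation (build GRCm38), Rplp0 spans chr5:115559467-115563727 on the plus strand, with 7 exons, a transcript of 1358 bases and 954 coding bases. Rbpj spans chr5:53466152-53657362 on the plus strand, with 11 exons, a transcript of 5440 bases and 1464 coding bases, and the antisense genes Gm10441 and Gm40304 overlap it. Gm8730 is a single exon at chr8:102864845-102865798 on the minus strand and overlaps no other annotated gene. Gm9625 is at chr13:67810246-67811200 on the plus strand, opposite 4930525G20Rik. Gm14165, at chr2:152353615-152354566, lies inside the transcript Gm14164 on the same strand, and Rplp0-ps1, at chr3:93278141-93279073, lies inside Flg on the same strand. Rbpj-ps3, at chr6:46529354-46530794 on the minus strand, lies inside Cntnap2, which runs the other way. All copies are annotated as processed pseudogenes. The sources used here do not say whether reads were counted by strand, so reads of these overlapping genes cannot be told apart.

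The copies differ from their parents at few bases. Gm8730 has the length of the Rplp0 coding sequence, 12 substitutions (98.7% identity) and a reading frame that ends at the same codon 318 as the parent's, with 3 amino acid changes. Gm9625 has 24 substitutions and 1 inserted base, with a first stop at codon 299. Gm14165 has 25 substitutions and 2 missing bases, with a first stop at codon 96, and Rplp0-ps1 has 40 substitutions and 21 missing bases. Rbpj-ps3 covers coding positions 21 to 1461 of Rbpj, without the start codon, and has 4 substitutions (99.7% identity) that change no amino acid in the 480 codons compared. Positions are counted from 1 at the A of the parent's start codon, with the parent's base first. Over the 4 Rplp0 copies there are 73 distinct substitutions, and 7 of them occur in every copy: T72C, G138C, T192C, A390G, A393G, A696G and A784G. The first stretch of 120 bases within 1 exon that holds the most differences of Gm8730 and aligns to every copy without a gap (coding positions 328 to 447, exon 4) is shown because the reads that separate the highest copy from its parent must cover such bases. Capitals mark bases that differ from Rplp0.
Rplp0 (chr5:115561108-115561227, plus strand): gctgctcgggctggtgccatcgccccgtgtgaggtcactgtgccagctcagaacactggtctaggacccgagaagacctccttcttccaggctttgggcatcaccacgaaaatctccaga
Gm8730 (chr8:102865352-102865471, minus strand): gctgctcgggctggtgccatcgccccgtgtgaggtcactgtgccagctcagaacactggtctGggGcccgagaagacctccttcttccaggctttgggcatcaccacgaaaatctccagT
Gm9625 (chr13:67810573-67810692, plus strand): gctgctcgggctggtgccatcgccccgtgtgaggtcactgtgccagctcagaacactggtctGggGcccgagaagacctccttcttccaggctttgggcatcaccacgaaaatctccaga
Gm14165 (chr2:152353940-152354059, plus strand): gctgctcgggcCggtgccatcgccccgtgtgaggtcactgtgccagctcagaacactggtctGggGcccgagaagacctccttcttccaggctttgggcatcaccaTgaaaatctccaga
Rplp0-ps1 (chr3:93278468-93278587, plus strand): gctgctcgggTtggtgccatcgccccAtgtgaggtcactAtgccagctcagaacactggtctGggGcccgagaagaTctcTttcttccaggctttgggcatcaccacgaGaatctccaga

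A390G and A393G, 3 bases apart, are the pair of capitals that all copies share in that stretch. The substitution A784G, in exon 6, is shared widely among annotated relatives of Rplp0. A search of GENCODE transcripts with the Rplp0 coding sequence found 26 genes that match it in its own direction, of which 4, the copies named above, are in the expression table; 1 of the others, the unprocessed pseudogene Gm4866, is on chromosome 5. Of the 21 that cover its position, 20 carry the base of the copies and 1 carries that of the parent. The bases around it (coding positions 764 to 792) are identical in all 4 copies, with the differing base in capitals.
Rplp0 (chr5:115562538-115562566, plus strand): ctgagtacaccttcccacttActgaaaag
Gm8730 (chr8:102865007-102865035, minus strand): ctgagtacaccttcccacttGctgaaaag

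The Rbpj copy is separated from its parent by 4 bases only, T330C, C969A, G972A and A1108C, which lie in exons 5, 9 and 10 of the parent. They are shown, in capitals, because a read assigned to Rbpj-ps3 by a mismatch must cover one of them.
Rbpj, coding positions 322 to 350 (chr5:53645870-53645898, plus strand): aactactgTacagccaaaacattgtacat
Rbpj-ps3, same positions (chr6:46530465-46530493, minus strand): aactactgCacagccaaaacattgtacat
Rbpj, coding positions 949 to 992 (chr5:53652667-53652710, plus strand): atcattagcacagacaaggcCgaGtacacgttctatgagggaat
Rbpj-ps3, same positions (chr6:46529823-46529866, minus strand): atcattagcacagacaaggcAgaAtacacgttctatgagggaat
Rbpj, coding positions 1088 to 1128 (chr5:53653125-53653165, plus strand): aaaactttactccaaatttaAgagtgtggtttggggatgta
Rbpj-ps3, same positions (chr6:46529687-46529727, minus strand): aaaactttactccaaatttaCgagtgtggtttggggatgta

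**Figure D1:**
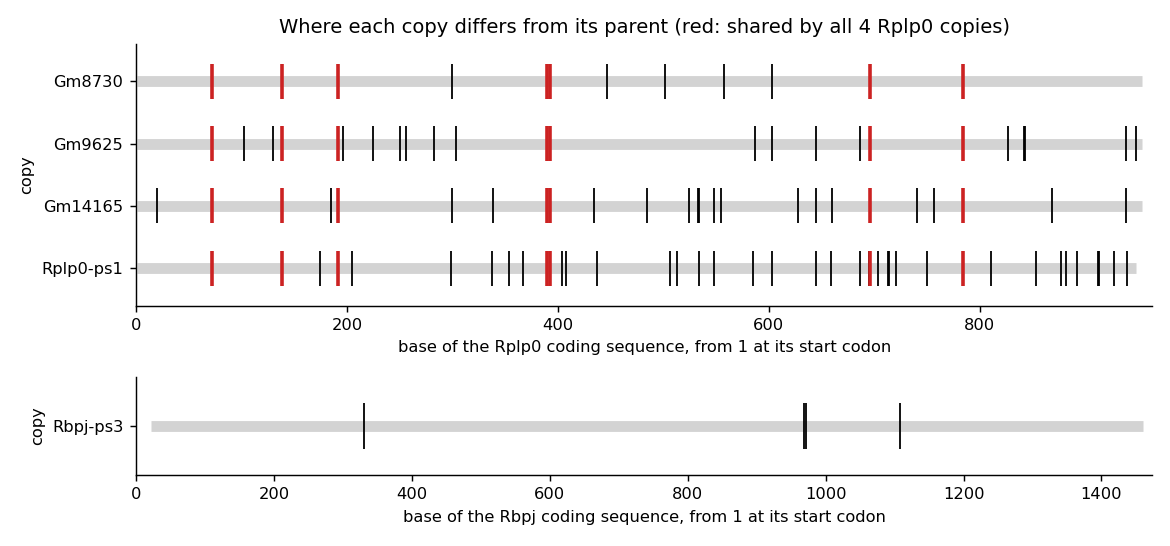
Substitutions of each copy against its parent, by base of the parent's coding sequence counted from the start codon. Grey bars show the aligned span, black lines single substitutions, and red lines the 7 that all 4 Rplp0 copies share; Rbpj-ps3 has 4.

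These distances set how many stretches of sequence parent and copy share. Of all stretches of 75 bases in the Rplp0 coding sequence, 33.4% occur unchanged in at least 1 copy (19.9% in Gm8730, 17.7% in Gm9625, 2.16% in Rplp0-ps1 and 1.14% in Gm14165). In Rbpj, 81.9% of stretches of 75 coding bases occur unchanged in Rbpj-ps3, and 21.2% of those of the whole transcript, since the copy as annotated holds no part of the long untranslated ends. Sequence of the genome beyond the annotated copies was not compared. The sources used here do not give the read length; with stretches of 50 and 100 bases the shares were 56.2% and 20.2% for the Rplp0 coding sequence, and 87.6% and 76.1% for that of Rbpj. Nor do they give the rule by which reads that fit several places were counted.

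Facts of the libraries that bear on these rows are few. Totals ran from 6885680 to 11952088 reads per library, and reads per gene could be recovered exactly from the deposited values. CPM is the usual scaling of reads to a common library total, and log2 CPM adds 0.5 reads first, so that 0 reads become a log2 CPM between -4.58 and -3.78; 3 reads, the limit that a count of 0 allows, equal 0.251 to 0.436 CPM. The miR-155 KO air libraries IIIb2, IIIb3 and IIIb4 had 1451 to 1645 genes without a read, against 259 to 1224 in the other 17. Mir155hg, the host transcript of miR-155, had 2 reads in WT air, 48 in WT smoke, 25 in miR-155 KO air and 8 in miR-155 KO smoke, and where they lie relative to the targeted part is not known here, so they are no check of the labels. All 20 listed alveolar macrophage markers were measured, and their summed level was 57466 to 67857 CPM over all libraries. Siglecf, 1 of the sorting markers, stood at 520 ± 34.8 CPM in WT air and 223 ± 51.0 in WT smoke (SD, n = 5 mice). In miR-155 KO it stood at 491 ± 75.3 in air and 223 ± 46.4 in smoke. Itgax, which encodes CD11c, stood at 1930 ± 93.2 and 1890 ± 120 in WT, and at 1896 ± 89.4 and 1974 ± 146 in miR-155 KO. Ptprc, which encodes CD45, stood at 1354 ± 40.6 and 845 ± 98.1 in WT, and at 1181 ± 133 and 955 ± 56.6 in miR-155 KO. Of the other cell types, the summed T and NK cell markers were at most 1.71 CPM in the air groups and 0.642 to 41.2 in the smoke groups, with Cd3d, Cd3e, Cd3g, Cd8a and Trac not among the genes of the table. Of B cell markers, only Ighm was in the table, at 0 to 1.71 CPM. Summed neutrophil markers were 86.1 to 134 CPM in the air groups and 139 to 357 in the smoke groups, with Ly6g, Mmp9 and Retnlg not in the table. Summed dendritic cell markers (6 of 8 measured, without Xcr1 and Cd209a) were 138 to 164 CPM in WT air and 121 to 167 in miR-155 KO air, against 215 to 364 in WT smoke and 195 to 226 in miR-155 KO smoke. Those of monocytes and interstitial macrophages (11 of 14) were 94.7 to 127 CPM in WT air, 88.4 to 270 in WT smoke, 102 to 138 in miR-155 KO air and 80.8 to 110 in miR-155 KO smoke. Epithelial markers (8 of 13, without Sftpa1, Sftpb and Sftpd) summed to 168 to 279 CPM over all libraries, and those of endothelium and stroma (3 of 8) to 2.34 to 7.73. The part of such cells in the smoke changes given below was not tested.

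Gm8730 was near 0 in WT and among the well-expressed rows in miR-155 KO. Its reads per library were 2, 4, 3, 2 and 3 in WT air and 2, 0, 3, 3 and 2 in WT smoke. In miR-155 KO they were 1185, 953, 684, 876 and 743 in air and 859, 810, 720, 1058 and 724 in smoke. No WT library came near any miR-155 KO library. As a rate, that is 0.318 ± 0.107 CPM in WT air against 101 ± 15.2 in miR-155 KO air, and 0.210 ± 0.136 against 92.9 ± 7.32 in smoke (SD, n = 5 mice). In bulk libraries, fewer cells with a transcript and less of it per cell cannot be told apart. The pooled rates had a ratio of 316 in air (95% counting interval 188 to 578) and 445 in smoke (242 to 929). On the log2 CPM scale the difference was 8.11 in air and 8.74 in smoke, the highest of all 13225 genes in both exposures. The size of such a log2 difference depends on what is added to values near 0: with 1 CPM added it was 6.26 and 6.28, with 5 CPM added 4.30 and 4.23, and with quantile normalization 8.64 and 9.61.

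The second copy, Gm9625, had a low level in WT that was above 0 in every library. WT air held 21, 13, 15, 19 and 24 reads and WT smoke 19, 25, 15, 19 and 7. The miR-155 KO libraries held 480, 412, 281, 314 and 401 reads in air and 340, 312, 279, 376 and 306 in smoke. The lowest miR-155 KO library thus had over 10 times the reads of the highest WT library. The rate was 2.07 ± 0.482 CPM in WT air and 42.7 ± 4.85 in miR-155 KO air, and 1.79 ± 0.735 against 36.1 ± 2.27 in smoke. The ratio of pooled rates was 20.4 in air (95% counting interval 16.6 to 25.5) and 20.3 in smoke (16.3 to 25.5).

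Gm14165 and Rplp0-ps1 were higher in miR-155 KO too, at much lower depth. Gm14165 had 0, 1, 12, 0 and 1 reads in WT air, 2, 2, 2, 1 and 0 in WT smoke, 38, 33, 43, 61 and 74 in miR-155 KO air and 27, 44, 25, 61 and 13 in miR-155 KO smoke. The 12 reads of the WT air mouse Ib1 were within 1 read of the lowest miR-155 KO smoke library; within each exposure the genotypes did not overlap. Rplp0-ps1 had 2 reads in all of WT air and 1 in all of WT smoke, against 14, 24, 5, 12 and 11 in miR-155 KO air and 8, 11, 1, 13 and 9 in miR-155 KO smoke. At such counts the ratio is loosely bounded: 32.8 in air (95% counting interval 8.74 to 277) and 44.8 in smoke (7.62 to 1812).

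The parent Rplp0 was lower in miR-155 KO, by less than 2-fold. Its reads were 6989, 6342, 6876, 7454 and 7325 in WT air and 8688, 6613, 6961, 7872 and 7166 in WT smoke. In miR-155 KO they were 5462, 4423, 3385, 3454 and 3668 in air and 3788, 3681, 3281, 4644 and 3414 in smoke. Every miR-155 KO library was below every WT library. The rate was 788 ± 26.3 CPM in WT air and 460 ± 26.0 in miR-155 KO air, and 779 ± 40.0 against 420 ± 24.5 in smoke. On the log2 CPM scale the parent was lower in miR-155 KO by a difference of -0.78 in air and -0.89 in smoke.

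Rbpj was also lower in miR-155 KO in every library. Its log2 CPM was 4.72, 5.01, 4.81, 4.80 and 4.49 in WT air and 4.95, 4.97, 4.75, 4.65 and 4.88 in WT smoke, from 200 to 352 reads each. In miR-155 KO it was 3.38, 3.92, 3.91, 3.87 and 3.39 in air and 3.53, 3.21, 2.78, 4.16 and 3.70 in smoke, from 50 to 194 reads each. The mean rates were 27.3 ± 3.51 CPM against 13.1 ± 2.45 in air and 28.7 ± 2.67 against 11.6 ± 4.15 in smoke, so the spread between miR-155 KO smoke mice was the widest. The log2 difference was -1.07 in air and -1.37 in smoke.

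Its copy Rbpj-ps3 rested on few reads. WT air held 1 read in all, in mouse Ib2, and WT smoke 4, of which 3 were in mouse IIb1. In miR-155 KO there were 15, 24, 6, 21 and 1 reads in air and 9, 14, 2, 4 and 18 in smoke. The genotypes did not overlap in air on the log2 CPM scale, where mouse IIIb4 with 1 read stood at -2.43 and the highest WT library at -2.64, and they overlapped in smoke. The ratio of pooled rates was 66.7 in air (95% counting interval 11.6 to 2672) and 12.5 in smoke (4.59 to 47.9).

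By the limma fit over all genes, 5 of the 7 rows were higher and 2 lower in miR-155 KO in air at an adjusted p under 0.05, where 0.416% of all genes passed in either direction. In smoke 4 were higher and 2 lower, with 1.58% of all genes passing. Groups did not overlap for 7 rows in air (1.83% of all genes) and for 6 in smoke (4.24%). These counts describe how the rows were chosen and test nothing; without the miR-155 KO air libraries IIIb2, IIIb3 and IIIb4, 3 of the 7 passed in air. Rplp0-ps1 and Rbpj-ps3 had 3 and 5 reads over all 10 WT libraries, so their place in the table rests on miR-155 KO reads; what filter the authors applied is not known here, and each gene of the table had at least 14 reads over all libraries.

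**Figure D2:**
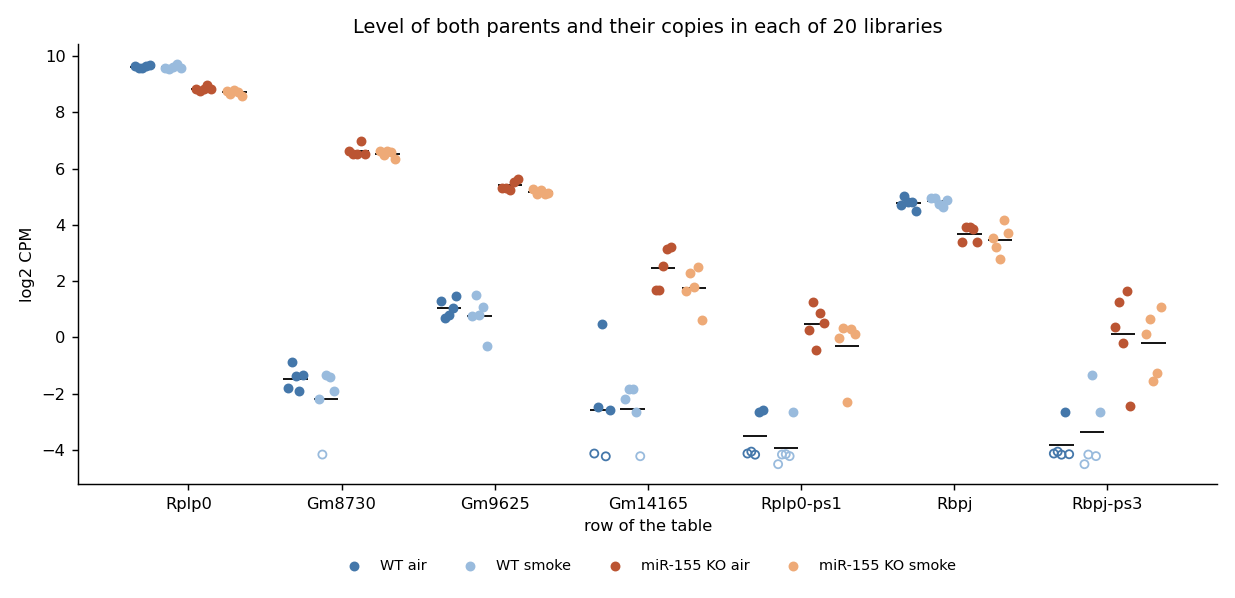
Log2 CPM of each of the 7 rows in each of 20 libraries, coloured by group; open circles are libraries without a read and black bars group means. Gm8730 stands between -4.17 and -0.89 in WT and between 6.36 and 6.99 in miR-155 KO, while Rplp0 and Rbpj are lower in every miR-155 KO library than in any WT library.

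Levels were compared between rows per length, which does not correct for how much of a copy can be told from its parent. Of stretches of 75 bases, 83.3% in Rbpj-ps3, 19.9% in Gm8730 and 17.7% in Gm9625 occur unchanged in the parent. In Rplp0-ps1 and Gm14165 these were 2.21% and 1.14%. The part of this in the order was not tested. Per kilobase of annotated transcript, the order in miR-155 KO air was Rplp0 (339 ± 19.2 CPM per kilobase), Gm8730 (105 ± 15.9), Gm9625 (44.7 ± 5.08), Gm14165 (6.34 ± 3.06), Rbpj (2.40 ± 0.450), Rplp0-ps1 (1.56 ± 0.667) and Rbpj-ps3 (1.05 ± 0.816; SD, n = 5 mice). The ranges of Rplp0, Gm8730, Gm9625 and Gm14165 did not overlap, and those of Rbpj, Rplp0-ps1 and Rbpj-ps3 did. In WT air the order was Rplp0 (580 ± 19.4 CPM per kilobase), Rbpj (5.03 ± 0.645) and Gm9625 (2.17 ± 0.504), with the other copies at or below 0.333. Gm8730, second in miR-155 KO air, was thus below Gm9625 in every WT air library, whose highest value for Gm8730 was 0.502 and lowest for Gm9625 1.63 CPM per kilobase.

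The copies took up a near constant part of the Rplp0 family reads in miR-155 KO. Of the reads on Rplp0 and its 4 copies, the copies held 23.9, 24.3, 23.0, 26.8 and 25.1% in miR-155 KO air and 24.6, 24.2, 23.8, 24.5 and 23.6% in miR-155 KO smoke. In WT they held 0.328, 0.283, 0.434, 0.294 and 0.394% in air and 0.264, 0.407, 0.286, 0.291 and 0.139% in smoke. The 10 miR-155 KO libraries thus spanned less than 4 percentage points. Within the copies, Gm8730 made up 66.7 ± 3.61% of copy reads in miR-155 KO air and Gm9625 28.4 ± 2.80%; in WT air Gm9625 made up most of the few copy reads, 76.5 ± 16.4%, and Gm8730 12.1 ± 5.71% (SD, n = 5 mice).

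For the Rbpj family the part on the copy was smaller and uneven, but the shares of the 2 families are not directly comparable. Rbpj-ps3 has 1441 bases beside a parent transcript of 5440, and Gm8730 has 954 beside 1358. Of the 75-base stretches of Rbpj-ps3, 83.3% occur unchanged in its parent, against 19.9% of those of Gm8730. The part of these differences in the shares was not tested. In miR-155 KO air it was 10.8, 13.4, 5.13, 17.4 and 1.18%, and in miR-155 KO smoke 8.26, 14.3, 3.85, 2.02 and 13.6%. With 85 family reads in the mouse at 1.18% and 121 in that at 17.4%, the 95% Wilson intervals are wide, 0.208 to 6.37% and 11.6 to 25.1%, and these do not overlap. WT libraries held at most 3 copy reads, up to 1.24% of the family.

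No shift of these parts with smoke was seen beyond the spread between mice. In miR-155 KO the Rplp0 copies held 24.6 ± 1.41% in air and 24.1 ± 0.444% in smoke, a difference of -0.50 percentage points (2-sided exact permutation test, p = 0.524). In WT they held 0.347 ± 0.0654% and 0.278 ± 0.0951% (exact permutation p = 0.198). For Rbpj-ps3 the values were 9.57 ± 6.46% and 8.41 ± 5.56% in miR-155 KO (exact permutation p = 0.770), and 0.0763 ± 0.171% and 0.321 ± 0.537% in WT (exact permutation p = 0.722). Over these 4 tests every adjusted p was 0.770, and the smallest p that 5 against 5 mice allow is 0.00794. In miR-155 KO the sign of the difference turned when air mouse IIIb3 was left out, to 0.0405 percentage points for the Rplp0 family and 0.783 for the Rbpj family, and for the Rbpj family also without smoke mouse IVb2, to 0.434.

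**Figure D3:**
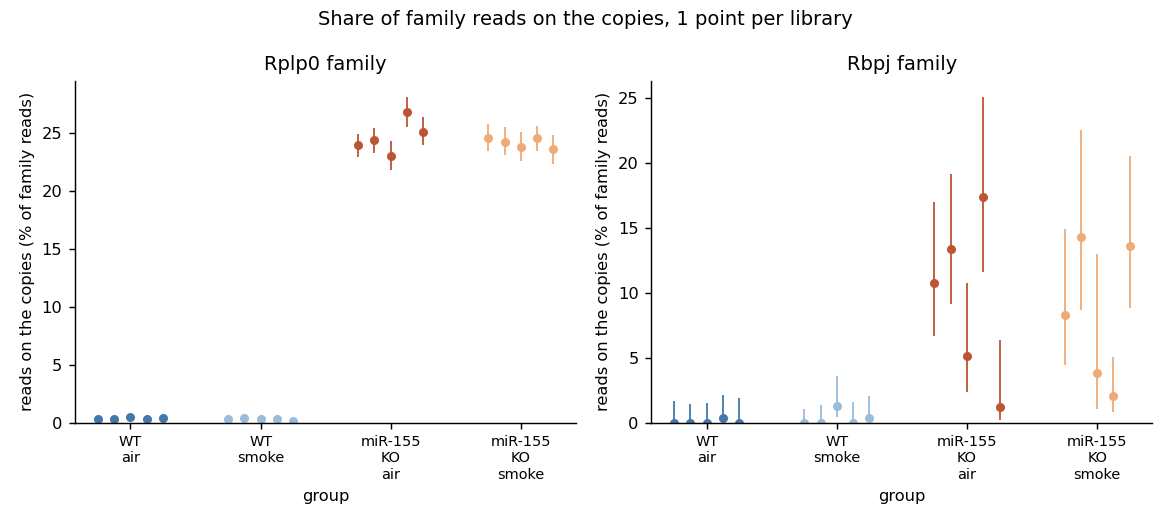
Percent of family reads on the copies in each library, with its 95% Wilson interval (counting error only), for the Rplp0 family and the Rbpj family. The Rplp0 copies hold 23.0 to 26.8% in every miR-155 KO library and at most 0.434% in WT; the Rbpj copy holds 1.18 to 17.4% in miR-155 KO.

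Adding the reads of parent and copies gives a quantity that does not depend on which of these rows a counted read was put in. It does not restore reads left out because they fit several places, or reads placed at relatives outside the table. The part of such reads in the sums was not tested. The Rplp0 family sum was 790 ± 26.5 CPM in WT air and 610 ± 44.2 in miR-155 KO air, and 781 ± 40.0 against 553 ± 33.6 in smoke (SD, n = 5 mice). The genotypes still did not overlap: the lowest WT sum was 740 CPM and the highest miR-155 KO sum 685. The log2 difference of the sums was -0.37 in air and -0.50 in smoke, against -0.78 and -0.89 for the parent row. For Rbpj the sum was 27.4 ± 3.51 CPM against 14.6 ± 3.29 in air and 28.8 ± 2.62 against 12.7 ± 4.19 in smoke. Its log2 difference, -0.93 in air and -1.24 in smoke, was closer to that of the parent row. These too describe the contrast by which the rows were chosen.

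**Figure D4:**
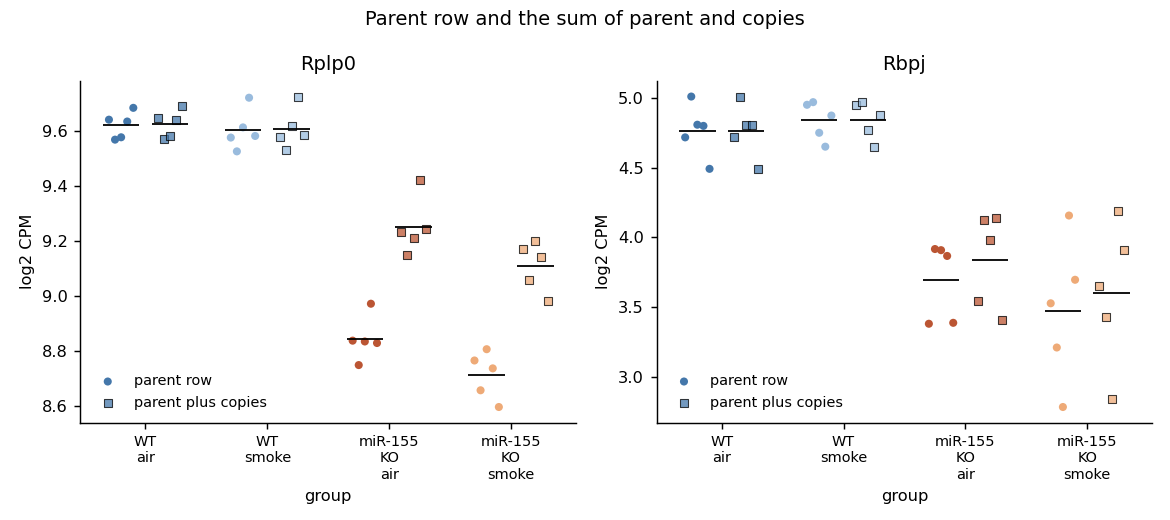
Log2 CPM of the parent row (circles) and of parent plus copies (squares with black edges) in each library, by group, with group means as black bars. In miR-155 KO air the Rplp0 mean goes from 8.84 for the parent to 9.25 for the sum, below the WT air sum of 9.63; for Rbpj it goes from 3.69 to 3.84, against 4.77 in WT air.

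The mouse codes hold a letter, a or b, whose meaning the labels do not give. Within each letter the genotypes stood apart in the share of the Rplp0 copies and in the level of Rbpj. The share of the Rbpj copy overlapped within letter b, where it reached 1.24% in WT smoke and went down to 1.18% in miR-155 KO air. Within letter a the Rplp0 copies held 23.8 to 24.6% of family reads in 4 miR-155 KO mice and 0.264 to 0.407% in 4 WT mice, and within letter b 23.0 to 26.8% and 0.139 to 0.434% in 6 mice of each. The log2 difference of Rbpj in air was -1.48 within letter a, with 2 WT mice and 1 miR-155 KO mouse, and -0.93 within letter b. In smoke it was -1.79 within letter a (2 WT and 3 miR-155 KO mice) and -0.83 within letter b (3 and 2).

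Smoke called none of the 7 rows in either genotype. In WT, 22.4% of all genes passed the limma threshold with smoke, and 0 of the 7 did (0 at an unadjusted p under 0.05, 0 with voom weights). Over all mice of WT air and WT smoke, Gm8730 held 14 and 10 reads and Gm14165 14 and 7. Rplp0-ps1 held 2 and 1 and Rbpj-ps3 1 and 4. At such counts only a large change could be called, so the 0 in WT says little about these rows. In miR-155 KO, 15.5% of all genes passed and 0 of the 7 (1 at an unadjusted p under 0.05, 0 with voom weights). For Rplp0 the log2 change with smoke was -0.02 ± 0.057 in WT (limma SE; 95% interval -0.13 to 0.10; adjusted p = 0.878). In miR-155 KO it was -0.13 ± 0.057 (95% interval -0.25 to -0.02; adjusted p = 0.120), the 1 row with an unadjusted p, 0.0277, under 0.05. These intervals leave room for changes of at most 1.07-fold up in WT, and down to 0.842 of the air level in miR-155 KO.

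The intervals of the other rows were wider. For Rbpj the log2 change was 0.07 ± 0.20 in WT (95% interval -0.34 to 0.48) and -0.22 ± 0.20 in miR-155 KO (-0.63 to 0.19). For Gm8730 it was -0.74 ± 0.40 in WT, where it compares 14 reads with 10, and -0.11 ± 0.40 in miR-155 KO, with limma adjusted p values of 0.197 and 0.903. With quantile normalization the WT change of Gm8730 passed the threshold. Gm9625 stood at -0.29 ± 0.27 and -0.24 ± 0.27. Gm14165, Rplp0-ps1 and Rbpj-ps3 had standard errors between 0.77 and 0.91, so a change of 2-fold could not be seen at their depth. The family sums gave -0.02 ± 0.059 in WT and -0.14 ± 0.059 in miR-155 KO for Rplp0 (limma adjusted p = 0.876 and 0.107), and 0.08 ± 0.20 and -0.24 ± 0.20 for Rbpj (0.844 and 0.483).

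The smoke responses of the 2 genotypes differed for none of the 7 rows by limma's interaction term (0 at an unadjusted p under 0.05, 0 with voom weights). Of all 13225 genes 0.0% passed in that contrast, with 1302 genes at an unadjusted p under 0.05 and 0 calls with voom weights. The difference was -0.11 ± 0.080 for Rplp0 (adjusted p = 0.666), -0.29 ± 0.28 for Rbpj (0.775), 0.63 ± 0.56 for Gm8730 (0.752) and 0.05 ± 0.39 for Gm9625 (0.978).

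**Figure D5:**
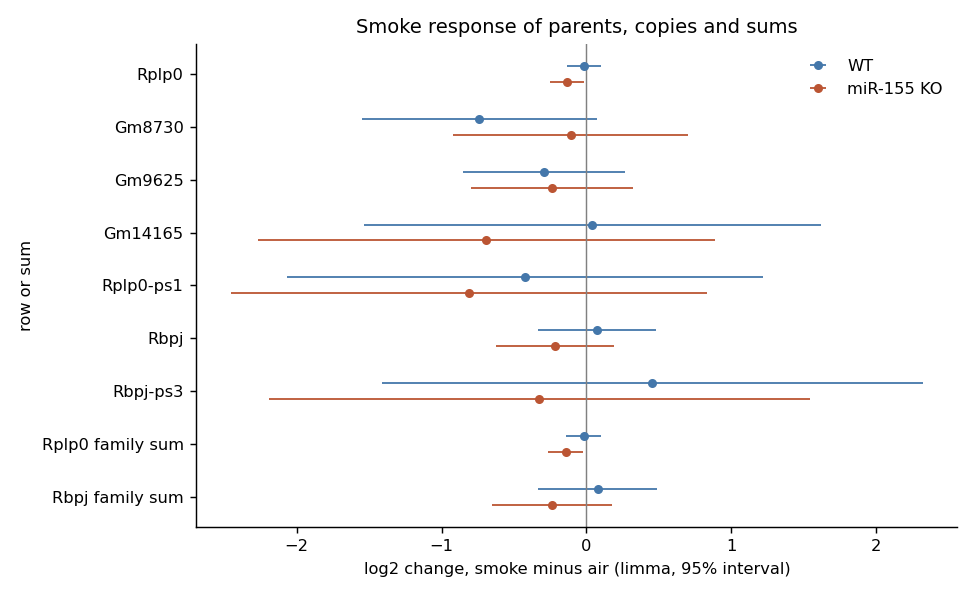
Log2 change with smoke for each row and for both family sums in WT and miR-155 KO, with limma 95% intervals. Rplp0 and its sum have the narrowest intervals, -0.13 to 0.10 for the Rplp0 row in WT, and those of Rbpj-ps3 reach from -2.19 to 2.32.

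The partners of P0 in the ribosomal stalk were not called between genotypes. Rplp1 and Rplp2, which bind P0 to form the stalk, had log2 differences between miR-155 KO and WT in air of 0.14 ± 0.076 and 0.13 ± 0.083 (limma adjusted p = 0.483 and 0.563). In smoke these were -0.10 ± 0.076 and -0.18 ± 0.083 (limma adjusted p = 0.652 and 0.331). Of 18 measured genes of the list of stalk proteins and their partners in translation, 0 passed in air (2 at an unadjusted p under 0.05, 0 with voom weights) and 0 in smoke (6 and 0), with list medians of 0.07 and -0.11 beside -0.04 and -0.02 over all genes. Of 48 large-subunit proteins, among them Rpl10, Rpl11 and Rpl12 of the stalk list, 0 passed in air (3 at an unadjusted p under 0.05, 0 with voom weights). In smoke 1 was lower, Rpl41, at -0.28 ± 0.073 (limma adjusted p = 0.0461). There 18 of the 48 had an unadjusted p under 0.05, beside 1786 of all 13225 genes. The medians of this list were 0.02 in air and -0.13 in smoke, beside -0.04 and -0.02 over all genes. Rpl41 did not pass without the mean trend, with quantile normalization, with median centring or with the mouse letter as a covariate. With smoke in WT, 6 large-subunit genes rose and 1 fell, among them Rpl41 (0.37 ± 0.073, limma adjusted p = 0.000402), Rpl38 (0.29 ± 0.097, adjusted p = 0.0284), Rpl28 (0.23 ± 0.080, adjusted p = 0.0391) and Rpl10 (-0.31 ± 0.055, adjusted p = 0.000113), and the median of the list was 0.08. In miR-155 KO 0 rose and 5 fell, led by Rpl10 (-0.33 ± 0.055, limma adjusted p = 7e-05) and Rpl23a (-0.37 ± 0.076, adjusted p = 0.000887), with Rpl26 at -0.26 ± 0.068 (adjusted p = 0.00822) and a list median of -0.06. By limma's interaction term the smoke responses of the genotypes differed for 0 of the 48 (17 at an unadjusted p under 0.05, 0 with voom weights). The median difference was -0.14, beside 0.02 over all genes. For the stalk list it was also 0 (4 and 0). In the stalk list 2 rose and 1 fell with smoke in WT, the elongation factor subunit Eef1g (0.26 ± 0.087, limma adjusted p = 0.0316), the subunit joining inhibitor Eif6 (0.32 ± 0.10, adjusted p = 0.0243) and Rpl10, and in miR-155 KO 1 fell, Rpl10. Of 20 stalk genes listed, 18 were measured, and all 48 of the large subunit.

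Among 16 other genes in common use as references, 0 passed between genotypes in air (2 at an unadjusted p under 0.05, 0 with voom weights). In smoke 3 were lower in miR-155 KO, among them Pgk1, a glycolytic enzyme (-0.41 ± 0.11, limma adjusted p = 0.0489), and Ppia, cyclophilin A (-0.25 ± 0.062, adjusted p = 0.0322). Without the mean trend 0 of the 16 passed, and with the letter covariate 1. With smoke, 4 rose and 1 fell in WT, and 3 rose and 2 fell in miR-155 KO. These responses differed between genotypes for 0 of the 16 by limma's interaction term (6 at an unadjusted p under 0.05, 0 with voom weights). Pgk1 and Ppia rose in WT (0.68 ± 0.11 and 0.37 ± 0.062, limma adjusted p = 2.09e-05 and 5.69e-05), Tfrc, the transferrin receptor, rose in miR-155 KO (1.13 ± 0.34, adjusted p = 0.0203), and Polr2a, the largest subunit of RNA polymerase II, fell in both (-0.34 ± 0.060 and -0.24 ± 0.060, adjusted p = 8.79e-05 and 0.00591). Gapdh, a glycolytic enzyme, rose in both (0.54 ± 0.062 and 0.24 ± 0.062, limma adjusted p = 1.45e-07 and 0.00637). The log2 change of Rplp0 was -0.02 in WT and -0.13 in miR-155 KO (limma adjusted p = 0.878 and 0.120). Between genotypes the Rplp0 row itself differed by -0.78 in air and -0.89 in smoke. The list medians were 0.03 and 0.04 with smoke and -0.00350 and -0.11 between genotypes.

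Some partners of RBPJ in the Notch pathway were called with smoke in both genotypes and, apart from 1 gene, none between genotypes. The counts below stand beside 1278 genes that rose and 1690 that fell with smoke in WT (22.4% of all 13225 in either direction), and 933 and 1118 in miR-155 KO (15.5%); the smoke responses of the genotypes differed for 0 genes of these lists (limma's interaction term; 0 with voom weights, 6 at an unadjusted p under 0.05). Of 11 listed ligands and receptors 3 were measured, the receptors Notch1 and Notch2 and the ligand Jag1. All 3 fell with smoke in WT: Notch1 by a log2 change of -0.89 ± 0.13 (limma adjusted p = 5.38e-06), Notch2 by -0.39 ± 0.074 (adjusted p = 0.000236) and Jag1 by -0.58 ± 0.18 (adjusted p = 0.021). In miR-155 KO 2 fell, Notch1 by -0.62 ± 0.13 and Notch2 by -0.37 ± 0.074 (limma adjusted p = 0.000844 and 0.000626). Between genotypes 0 of 3 passed in air (0 at an unadjusted p under 0.05, 0 with voom weights) and 0 in smoke (1 and 0).

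Genes that cleave, sugar-modify or turn over Notch split in direction in both genotypes. Of 28 measured (29 listed), 3 rose and 7 fell with smoke in WT, and 2 rose and 3 fell in miR-155 KO. Adam10 and Adam17, the proteases of the cut that follows ligand binding, fell in WT (-0.34 ± 0.078 and -0.34 ± 0.087, limma adjusted p = 0.00165 and 0.00455). So did Mib1, a ubiquitin ligase of Notch ligands (-0.42 ± 0.098, limma adjusted p = 0.00195), and Mfng, a Fringe glycosyltransferase, by -1.70 ± 0.43 (adjusted p = 0.00429). The 3 that rose in WT, named after their values were seen, were Furin, a protease that cuts the receptor as it matures (0.40 ± 0.10, limma adjusted p = 0.00502), and the gamma-secretase subunits Ncstn (0.20 ± 0.072, adjusted p = 0.0407) and Aph1c (0.52 ± 0.17, adjusted p = 0.0271). In miR-155 KO Aph1c rose too, by 0.81 ± 0.17 (limma adjusted p = 0.00121), and Numb, an inhibitor of Notch, rose (0.28 ± 0.091, adjusted p = 0.0349). The 3 that fell there were the Deltex genes Dtx3 and Dtx4 (-0.28 ± 0.095 and -0.32 ± 0.093, limma adjusted p = 0.0399 and 0.0152) and, named after its value was seen, the Fringe gene Lfng (-0.44 ± 0.15, adjusted p = 0.0418); Dtx4 also fell in WT (-0.32 ± 0.093, adjusted p = 0.0127). The list median was -0.13 in WT and -0.03 in miR-155 KO, beside -0.02 and -0.01 over all genes. Between genotypes 0 passed in air (5 at an unadjusted p under 0.05, 0 with voom weights) and 0 in smoke (2 and 1).

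Of the genes listed as coactivators and corepressors of RBPJ most did not pass with smoke, and those that passed were more often lower than higher, as over all genes. Of 10 coactivators, 1 rose and 4 fell with smoke in WT, and 1 rose and 1 fell in miR-155 KO. The Mastermind genes Maml2 and Maml3 moved apart: Maml2 rose in WT and miR-155 KO (0.68 ± 0.19 and 1.05 ± 0.19, limma adjusted p = 0.00737 and 0.00014) and Maml3 fell in both (-1.36 ± 0.28 and -1.28 ± 0.28, adjusted p = 0.000476 and 0.00133). The acetyltransferases Ep300 and Crebbp fell in WT (-0.27 ± 0.085 and -0.52 ± 0.13, limma adjusted p = 0.0206 and 0.0025). Of 24 measured genes on the corepressor list (25 listed), 0 rose and 7 fell in WT and 0 rose and 5 fell in miR-155 KO. These counts include Kmt2d and Ncoa1, which are not corepressors by their usual function. Ncor1, a nuclear receptor corepressor, stood at -0.62 ± 0.073 and -0.40 ± 0.073 (limma adjusted p = 2.3e-07 and 0.000205). Kmt2d, a histone methyltransferase, fell in both (-0.40 ± 0.080 and -0.34 ± 0.080, limma adjusted p = 0.00039 and 0.00272), as did the Groucho family gene Tle3 (-0.77 ± 0.14 and -0.47 ± 0.14, adjusted p = 0.000148 and 0.0197), and the histone demethylase Kdm1a fell in miR-155 KO (-0.44 ± 0.13, adjusted p = 0.014). Ncoa1, known as a coactivator of nuclear receptors, was on this list too. It fell with smoke in both genotypes (-0.82 ± 0.11 and -0.56 ± 0.11, limma adjusted p = 1.13e-06 and 0.000325) and was the 1 gene of the list to pass between genotypes, higher in miR-155 KO in smoke (0.42 ± 0.11, limma adjusted p = 0.0343), a call lost without the mean trend. Coactivators had 0 calls between genotypes in air (0 at an unadjusted p under 0.05, 0 with voom weights) and in smoke (1 and 0), and corepressors 0 in air (4 and 0).

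Of 13 measured genes on the list of Notch and RBPJ targets (19 listed), 5 rose, 0 fell and 8 did not pass with smoke in WT, and 3 rose, 1 fell and 9 did not pass in miR-155 KO. Whether each gene of this list is a target in these cells was not tested. The list medians were 0.45 and -0.02. Among those that did not pass in WT, Myc, Cd44, Irf8 and Hes6 stood at -0.46, -0.21, -0.17 and -0.04. Cdkn1a, a cell cycle inhibitor, rose in both genotypes (0.81 ± 0.11 and 0.85 ± 0.11, limma adjusted p = 4.19e-06 and 3.19e-06), as did Ccnd1, cyclin D1 (3.97 ± 0.86 and 2.49 ± 0.86, adjusted p = 0.001 and 0.0482). Il7r, the interleukin 7 receptor, rose by 4.00 ± 0.75 and 3.39 ± 0.75 (limma adjusted p = 0.000197 and 0.0018). Il7r is also on the list of T and NK cell markers, whose summed level was 0.571 to 1.71 CPM in WT air and 7.47 to 41.2 in WT smoke; the part of such cells in its rise was not tested. Cmklr1, the chemerin receptor, rose in WT (6.06 ± 0.996, limma adjusted p = 3.89e-05) and stood at 2.55 ± 0.996 in miR-155 KO (adjusted p = 0.0843), beside the summed dendritic cell and monocyte markers given above. Myc fell in miR-155 KO (-0.87 ± 0.23, limma adjusted p = 0.0095). Between genotypes, where Rbpj itself was lower by -1.07 and -1.37, 0 of the 13 listed genes passed in air (2 at an unadjusted p under 0.05, 0 with voom weights) and 0 in smoke (4 and 3). Hes1, a known target of this pathway, was not among the genes of the table. The list median was 0.02 in air and -0.28 in smoke.

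What lies next to these rows on the chromosome was compared with them, since the rule did not use it. The 2 genes next to Rplp0 both differed between genotypes, in opposite directions. Pxn, a focal adhesion adaptor at chr5:115506676-115555987 just before Rplp0, was lower in miR-155 KO by -0.63 ± 0.10 in air and -0.50 ± 0.10 in smoke (limma adjusted p = 0.000809 and 0.00618). Gcn1l1, an activator of the Gcn2 kinase at chr5:115565254-115622654 just after it, was higher by 0.81 ± 0.083 and 0.71 ± 0.083 (limma adjusted p = 3.36e-07 and 4.08e-06). The next gene out on either side, Sirt4 and Rab35, did not pass, with limma adjusted p values of 0.506 and 0.928 in air. Around Rbpj the nearest measured genes were Gm45495 and Tbc1d19, at 279 and 295 kilobases between midpoints, and neither passed (limma adjusted p = 0.806 and 0.996 in air, 0.276 and 0.649 in smoke).

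Over all genes 0.416% passed between genotypes in air and 1.58% in smoke, and the count among genes next to the copies was close to those shares. Of the 30 genes nearest to the 5 copies, 3 on either side, 0 passed between genotypes in air (3 at an unadjusted p under 0.05, 0 with voom weights) and 1 in smoke, Tcaf1, near Rbpj-ps3 at 3841 kilobases (0.62 ± 0.091, limma adjusted p = 0.000141). The nearest to Gm8730 were Impdh2-ps and Tk2, whose log2 differences in air were 1.08 ± 0.72 and 0.21 ± 0.13 (limma adjusted p = 0.582 and 0.546). Those of Gm9625 were Zfp493 and Zfp273, at 0.52 ± 0.55 and -1.59 ± 0.75 (limma adjusted p = 0.765 and 0.418). Those of Gm14165 were Trib3 and Sox12, at 0.15 ± 0.31 and 2.32 ± 1.15 (limma adjusted p = 0.9 and 0.436). Rplp0-ps1 lies between Gm4202 and Tchh, at -1.56 ± 1.08 and 0.20 ± 0.18 (limma adjusted p = 0.607 and 0.703), and Cul1, next to Rbpj-ps3, stood at 0.00470 ± 0.085 (limma adjusted p = 0.993). Of 318 other processed pseudogenes in the table, 0 passed in air (24 at an unadjusted p under 0.05, 0 with voom weights) and 0 in smoke (9 and 0), and the highest log2 differences were 2.20 for Gm6682 in air and 2.30 for Gm3052 in smoke.

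The genes whose levels over the 20 libraries were most like those of the 7 rows lay mostly on chromosome 5, where the parents are. Likeness was Pearson's r of log2 CPM over 20 libraries with non-members of a mean log2 CPM of at least 1, given with no test since the libraries share the genotype difference. Of the 10 distinct genes among the 3 most alike of each row, 9 are on chromosome 5 and 1, Usp25, is on chromosome 16. Rplp0 was most like Gltp (r = 0.93), Tmem165 (0.87) and Usp25 (0.87), and Rbpj most like Gltp (0.89), Tmem165 (0.86) and Scarb2 (0.81). Gm8730, on chromosome 8, was most like Rassf6 (0.95), Gcn1l1 (0.95) and Atp10d (0.93). The same 3 led for Gm9625, on chromosome 13 (0.94, 0.93 and 0.93), and for Rplp0-ps1, on chromosome 3, with Atp10d first (0.95). Gm14165, on chromosome 2, was most like Git2 (0.89), Rassf6 (0.85) and Aff1 (0.85), and Rbpj-ps3, on chromosome 6, most like Bend4 (0.84), Gcn1l1 (0.80) and Atp10d (0.79). Rassf6 had a mean log2 CPM of -0.71 in WT air and 4.68 in miR-155 KO air.

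Genes of chromosome 5 also made up more of the calls between genotypes than their number, a count made after the values were seen. Leaving out the 7 rows, 19 of 823 genes on chromosome 5 were called in air (2.31%) and 29 of 11922 on the others (0.243%). In smoke these were 38 of 823 (4.62%) and 164 of 11922 (1.38%). The gap depended on single libraries through the count on the other chromosomes: leaving out 1 library gave 14 to 25 genes on chromosome 5 and 9 to 148 on the others in air, and 26 to 45 and 56 to 322 in smoke. Without miR-155 KO air mouse IIIa5 it was 25 and 148 in air, and without WT smoke mouse IIa5 45 and 322 in smoke. The count on the other chromosomes moved over 1.5 times without 8 further mice in air (Ia3, Ia4, Ib2, IIa1, IIIb3, IIIb4 and IVa2, to 9 to 19, and IVa5, to 45) and without 5 in smoke (IIa1, IIb1, IIb2, IVa5 and IVb2, to 56 to 107). The called genes of chromosome 5 in air lay between 67.4 and 129.9 megabases, a stretch that holds Rplp0 and not Rbpj, and those in smoke between 3.34 and 147.7 megabases, which holds both. Genotype and whatever else separates the strains cannot be told apart in this design.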

How the data were processed

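The authors deposited 1 table of log2 CPM values for 13225 genes in 20 libraries, made with limma after alignment with STAR 2.6.0c to GRCm38.p6, per the submitters' processing notes. The sources used here name no counting tool, strand setting, low-count filter or rule for reads that fit several places. Inverting the voom formula (0.5 reads added, 1 added to the total) gave whole reads for 100.0% of values within 0.001. limma 3.58.1 (R 4.3.3) was fitted to the deposited log2 values with 1 mean for each group, a trended prior and Benjamini-Hochberg adjustment, called at an adjusted p under 0.05; the fit was tested on simulated data. Standard errors pool the spread of all groups. Each library has its own mouse code, so replicates are separate mice. Copies were aligned from GENCODE M21 transcripts, which matched 12752 table genes by name, with blastn 2.17.0 and biopython 1.88. Shares of copies were compared by exact permutation over mice. The members and gene lists were chosen with earlier results of these data known. Named genes are the 7 members, up to 4 called genes with the smallest p per pathway or reference list and contrast, the 3 most alike genes and the nearest gene on either side; values of 3 such genes are not reported here. Alternatives were other priors, filters, pseudocounts, scalings, weights, the mouse letter as covariate, fewer groups or libraries, and summed families. Intervals and floors cover counting error only.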

Additional observations from a re-analysis of the deposited data

Results flagged for a closer look

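Single libraries stood apart from the other 4 of their group in 5 of 44 groups of 5 values (the gap to the nearest library, over the range of the group, was above 0.71). This limit marks about 1 in 20 groups of normally spread values. That rate does not hold for rows of 0 and single reads, so the 5 cannot be set against it. Gm8730 in miR-155 KO air was highest in mouse IIIb3, at a log2 CPM of 6.99 (gap 0.770 of the range). Rplp0-ps1 in WT smoke was highest in IIb3, at -2.64, the 1 library of that group with a read, and in miR-155 KO smoke lowest in IVa5, at -2.29, also with 1 read. Rbpj-ps3 in WT air was highest in Ib2, at -2.64 with 1 read, which is also the 0.382% of Rbpj family reads on the copy in that mouse.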

How the results depend on the processing

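Without the 3 miR-155 KO air libraries of fewest detected genes (IIIb2, IIIb3 and IIIb4), 3 of the 7 rows passed between genotypes in air in place of 7, and minimum mean log2 CPM values of 1 and 3 left 4 and 3 rows in air and 3 (at 3) in place of 6 in smoke, since the other rows are then not tested. Smoke in WT called 1 row, Gm8730, with quantile normalization. Counts over all genes moved more than 1.5 times as follows. Without those 3 libraries smoke in miR-155 KO called 1220 genes in place of 2051, and the genotypes differed in 24 genes in air in place of 55 and 356 in smoke in place of 209. Fits of only the groups compared gave 24 in air and 334 in smoke, no mean trend 105 in smoke and array weights 954. The difference of the smoke responses called 0 genes, and 1 with array weights, 2 with a robust prior, a mean of at least 1 or median centring, 3 with no trend or quantile normalization, 4 with a mean of at least 3 or log2 of CPM plus 1, and 6 with CPM plus 5. Leaving out 1 library gave 0 to 42 there (42 without WT smoke IIa5, 19 and 10 without miR-155 KO air IIIa5 and IIIb1, 1 each without IVa2, Ib2, IIa1 and IIb3), 29 to 182 genes between genotypes in air (29 and 36 without WT air Ia4 and Ib2, 182 without miR-155 KO air IIIa5) and 88 to 374 in smoke (88, 132 and 374 without WT smoke IIb1, IIb2 and IIa5, 138 each without miR-155 KO smoke IVa5 and IVb2).

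The Notch and RBPJ list gene called between genotypes in smoke (1) became 0 with no trend, 2 with a robust prior or a mean of at least 1 or 3, 3 with quantile normalization, median centring, only the groups compared or without the 3 libraries, 5 with CPM plus 1 or voom weights, 6 with CPM plus 5 and 9 with array weights, and 0 to 4 when 1 library was left out; in air leaving 1 out gave 0 to 2. Ribosomal list genes called with smoke in WT numbered 9 and became 3 with no trend, 17 with quantile normalization, 14 with only the groups compared or without the 3 libraries, 20 with array weights, and 2 to 15 when 1 library was left out; in miR-155 KO they were 3 with quantile normalization. Between genotypes in smoke they were 0 with no trend, quantile normalization, median centring or the letter covariate, 2 with only the groups compared, voom weights or without the 3 libraries, 8 with array weights and 0 to 2 when 1 library was left out. Reference genes called with smoke in miR-155 KO (5) were 3 with no trend, 8 with quantile normalization and 1 without the 3 libraries; between genotypes in smoke (3) they were 0 with no trend, 1 with the letter covariate, 5 with array weights and 1 to 4 when 1 library was left out.

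Of single changes with smoke, 638 of 665 values over rows and alternatives kept their direction and their side of the threshold and 26 changed sign, all of changes that had not passed. With quantile normalization the WT change became 0.0386 for Rplp0, 0.0355 for its family sum and -0.723 for Gm14165, which was -0.115 and -0.0400 with CPM plus 1 and plus 5. In miR-155 KO, Gm8730 was 0.0401 with the letter covariate and Gm14165 0.0748 without the 3 libraries. The difference of responses was -0.0723 for Gm8730 with CPM plus 5, -0.0623, -0.147 and -0.00540 for Gm9625 with CPM plus 1, plus 5 and the letter covariate, 0.0118 and 0.0327 for Gm14165 with quantile normalization and without the 3 libraries, and 0.101 for Rplp0-ps1 with array weights. Leaving out 1 library gave WT changes of -0.0469 to 0.00200 for Rplp0, -0.0479 to 0.000500 for its sum, -0.369 to 0.807 for Gm14165 and -0.0517 to 0.753 for Rbpj-ps3, a miR-155 KO change of -0.963 to 0.0543 for Rbpj-ps3, and differences of -0.216 to 0.240 for Gm9625 and -0.624 to 0.107 for Rplp0-ps1. The parts of family reads on copies differed with smoke in miR-155 KO by -0.895 to 0.0405 percentage points (Rplp0) and -3.26 to 0.783 (Rbpj). Counting Gucd1 as a copy, since 1 of its transcripts holds an Rplp0 copy in the opposite direction, gave -2.93 points in WT (exact permutation p = 0.00794), where Gucd1 itself stood at 111 ± 10.9 CPM in air and 81.6 ± 5.75 in smoke (SD, n = 5 mice). Genotype differences of the Rplp0 sum became -0.78 and -0.89 with the parent row alone. The windows of 50 and 100 bases gave 56.2 and 20.2% for Rplp0 and 87.6 and 76.1% for Rbpj. Over all alternatives other than leaving out 1 library, called genes of chromosome 5 numbered 13 to 21 in air and 22 to 92 in smoke, and those of other chromosomes 5 to 45 (5 with only the groups compared, beside 13 on chromosome 5) and 77 to 842 (842 with array weights, beside 92). Of 584 genotype values, which were differences of single rows and counts of called genes on chromosome 5 and elsewhere, 50 moved. Of the single-row differences, 0 changed sign, and those that moved did so by more than the spread between mice. A count moved if it passed the fold limit given above for counts over all genes. With CPM plus 1 and plus 5, the air difference of Gm9625 became 3.84 and 2.75, and that of Gm14165 2.40 and 1.02. That of Rplp0-ps1 was 1.20 and 0.35, and that of Rbpj-ps3 1.16 and 0.36. The cause of these moves was not tested. No paired analysis was possible because each mouse code occurs once. Depth limits Rplp0-ps1, Rbpj-ps3 and Gm14165 most.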
